A study of Mus musculus with 6 samples.

Results

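In CD4 T cells of both genotypes, AMPK KO and WT, 10 genes of neutrophil granules and of the neutrophil cytosol were followed, namely Elane, Mpo, Ngp, Camp, Ltf, Lcn2, Mmp8, Retnlg, S100a8 and S100a9. They were taken by symbol as a fixed list, and all 10 were found among the 23282 genes listed for each sample. WT samples came from Prkaa1fl/flCD4Cre-neg mice and AMPK KO samples from Prkaa1fl/fl mice that carry CD4Cre, a recombinase expressed from the CD4 promoter that removes the catalytic subunit gene Prkaa1, so both groups carry the floxed alleles of the C57BL/6 strain and only AMPK KO carries Cre, with 3 samples per group. The methods give the mice as females of 6 to 8 weeks unless stated otherwise, which the sex-linked transcripts given with the library depths go against. CD4 T cells were taken from spleen and lymph nodes, for which the methods name magnetic beads or a cell sorter, then rested for 1 h and stimulated with anti-CD3 and anti-CD28, each at 2 µg/mL, for 24 h by the labels and for 6 h by the methods.

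Neutrophils are short-lived phagocytes that fill their granules in sequence while they mature in the bone marrow. Proteases and myeloperoxidase are packed first, into azurophil granules, in the early stages of maturation. The iron-binding and antimicrobial proteins of the specific granules follow, then the gelatinase granules, and the messages for the early granule proteins are low in mature blood neutrophils. S100a8 and S100a9 are made into the cytosol, where they form calprotectin, and their messages remain high in mature cells. CD4 T cells are not known as a source of the granule proteins, and the question put to these data was whether their transcripts differed between the genotypes alongside those of macrophages.

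The upstream stretches of 4 members are shown as examples, namely Ngp and Ltf, which passed the test, and S100a8 and Retnlg, which did not and whose means lay on opposite sides. Each run holds the 250 bases before the RefSeq start (GRCm38.p6), written 5′ to 3′, with capitals for 2 motifs of granulocyte transcription factors. One is the C/EBP core TTGCNNAA and the other the PU.1 core GAGGAA, both searched on either strand, as TTNNGCAA and TTCCTC in reverse.
Ngp, chr9:110419558-110419807, plus strand: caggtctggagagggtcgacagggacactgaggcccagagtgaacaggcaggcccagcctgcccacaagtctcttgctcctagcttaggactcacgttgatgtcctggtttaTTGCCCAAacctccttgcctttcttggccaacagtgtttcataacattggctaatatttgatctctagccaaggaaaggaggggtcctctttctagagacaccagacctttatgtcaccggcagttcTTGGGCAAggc
Ltf, chr9:111019042-111019291, plus strand: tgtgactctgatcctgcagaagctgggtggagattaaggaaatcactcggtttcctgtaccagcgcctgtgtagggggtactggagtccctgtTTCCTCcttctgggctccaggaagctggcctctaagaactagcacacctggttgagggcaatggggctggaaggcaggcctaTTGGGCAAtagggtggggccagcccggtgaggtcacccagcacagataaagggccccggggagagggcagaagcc
S100a8, chr3:90668821-90669070, plus strand: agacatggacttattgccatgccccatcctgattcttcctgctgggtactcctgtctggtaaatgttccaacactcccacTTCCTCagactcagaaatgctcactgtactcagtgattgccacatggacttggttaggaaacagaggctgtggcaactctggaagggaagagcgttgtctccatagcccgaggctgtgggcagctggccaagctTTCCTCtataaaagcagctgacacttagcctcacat
Retnlg, chr16:48872358-48872607, plus strand: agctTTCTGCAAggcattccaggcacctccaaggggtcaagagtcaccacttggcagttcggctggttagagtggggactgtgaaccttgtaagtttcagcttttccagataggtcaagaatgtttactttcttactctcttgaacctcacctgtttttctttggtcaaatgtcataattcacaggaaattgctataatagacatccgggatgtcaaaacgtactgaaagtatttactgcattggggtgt
In windows from 250 bases before to 50 after the start, 6 of the 10 members held the C/EBP core, against 10.8% of all 32851 windows. The PU.1 core was in 6 members, against 28.3% of all windows. Ngp held the C/EBP core at 138 and at 11 bases before the start, and Ltf held it at 75 bases with a PU.1 core at 157. S100a8 held the PU.1 core at 170 and 36 bases before the start and no C/EBP core in this window, while Retnlg held a C/EBP core at 246 bases. Lcn2, Ltf and Mmp8 held both motifs, and Camp held neither. Such matches describe the letters only.

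Levels are the values that the authors deposited, on a log2(CPM + 1) scale, where CPM is a gene's reads scaled for the size of the library, from 3′ end sequencing. The libraries held 9575096 to 10168121 reads on genes in WT and 10515155 to 11185360 in AMPK KO. Rn45s, the precursor of ribosomal RNA, made up 20.7 to 24.9% of each WT library and 8.48 to 10.8% of each AMPK KO library. Prkaa1 had mean log2 levels of 4.92 and 4.49, with overlapping groups (limma, adjusted p = 0.357), so it does not by itself check the labels. Xist had 8 to 32 reads per WT library and 1998 to 2876 per AMPK KO library, and the Y-linked Ddx3y had 3158 to 3462 and 1296 to 1840, whereas the methods state females. These transcripts differ with the genotype, and their part in the other differences cannot be told apart from it. T cell genes were present at high levels, with Cd3d at a mean log2 level of 9.45 in WT and 9.14 in AMPK KO. Cd4 was at 6.69 in WT and 6.33 in AMPK KO. Genes of other cells were present at high levels too. The CD8 T cell gene Cd8b1 was at 7.45 and 7.83, above Cd4 in both groups, and Cd8a at 6.68 and 7.02. The erythroid gene Hba-a1 was at 11.30 and 10.98. The share of CD4 T cells in the samples was not tested.

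In AMPK KO samples, transcripts of the granule proteins Ngp and Ltf were lower, and Elane was listed at 0 throughout. By contrast, Retnlg and Mmp8 had higher means in AMPK KO, and S100a8 and S100a9 had lower ones, all without passing the test. Of the 9 members that entered the test, 2 passed an adjusted p of 0.05 in limma, both lower in AMPK KO, whereas 5.65% of all 11279 tested genes were called, 3.1% lower and 2.54% higher. The groups did not overlap for 4 of these 9 members on the lower side (S100a8, Ngp, Ltf and Mpo), against 14% of all tested genes, and for 1 on the higher side (Retnlg), against 11.6%. Elane was not tested, because its mean over the 6 samples was under the minimum of 1. Mpo entered the test only through WT, as its AMPK KO mean was under 1. In bulk samples, fewer cells of a type and less RNA per cell cannot be told apart.

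**Figure D1:**
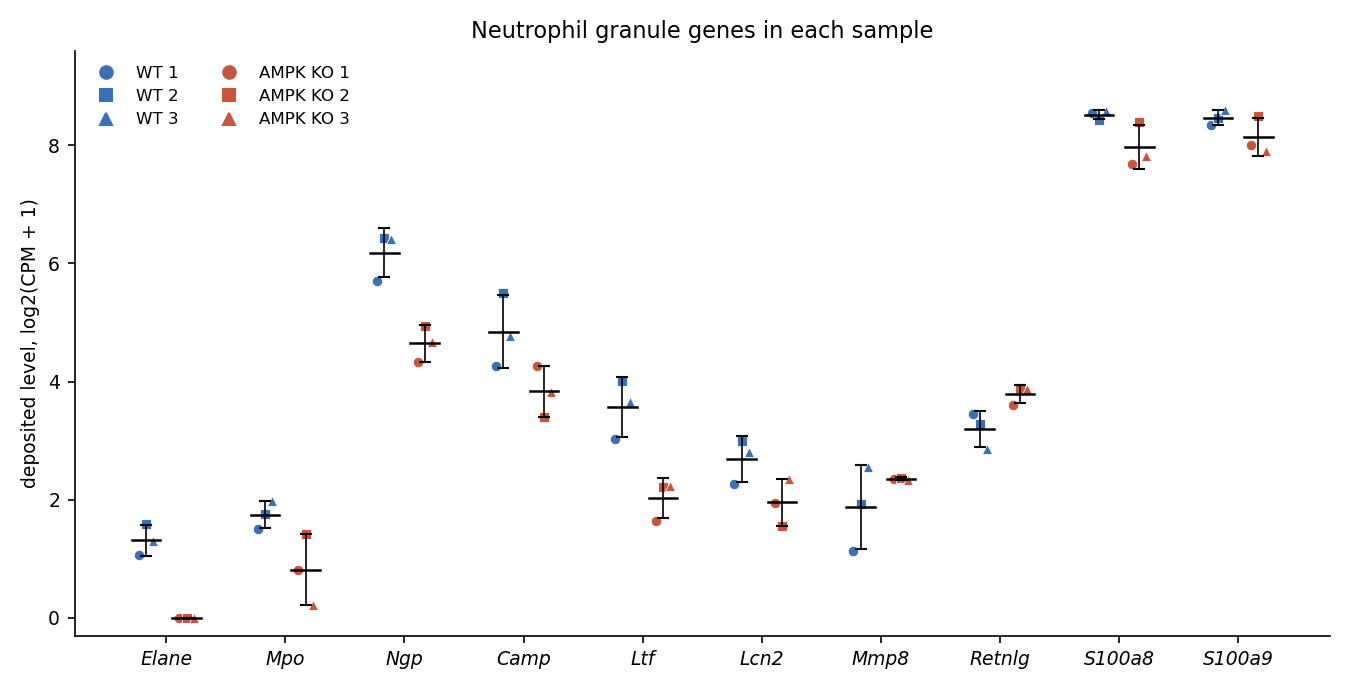
Deposited log2(CPM + 1) level of each of the 10 genes (vertical axis) in each of the 3 WT and 3 AMPK KO samples, where a symbol is a sample, a horizontal bar the group mean and the error bar the SD. All AMPK KO samples lie below all WT samples for Elane, Mpo, Ngp, Ltf and S100a8, and above them for Retnlg.

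Elane encodes neutrophil elastase, a serine protease of the azurophil granules. Its log2 levels were 1.06, 1.59 and 1.30 in WT samples 1 to 3 and 0 in each AMPK KO sample. These rest on 10, 20 and 13 reads in WT and 0 in all AMPK KO libraries. Pooled over the group, WT had 43 reads or 1.53 CPM (exact Poisson 95% interval 1.11 to 2.06, counting error only). An upper limit of 3 reads over the AMPK KO libraries is 0.087 CPM. Against it, Elane was at least 12.7-fold lower in AMPK KO when the lower end of the WT interval was taken, and 17.6-fold lower at the WT value itself. With every listed gene tested, its adjusted p was 0.0766 in limma, so the difference did not pass the threshold over all genes.

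Mpo, the myeloperoxidase that makes hypochlorous acid in the same granules, had log2 levels of 1.51, 1.77 and 1.98 in WT and 0.82, 1.42 and 0.22 in AMPK KO. All AMPK KO samples lay below all WT samples, on 17 to 26 reads per WT library and 2 to 18 per AMPK KO library. The means of 1.75 ± 0.24 and 0.82 ± 0.60 (SD, n = 3) differed by −0.93 ± 0.46 (standard error), which limma did not call (adjusted p = 0.258). The difference was −1.48 with a pseudocount of 0.25 (adjusted p = 0.271 in limma) and −1.90 by voom on the recovered reads (adjusted p = 0.266). Mpo is overlapped by Gm11505 on the opposite strand, and the sources do not say whether reads were counted by strand. Prtn3, the proteinase next to Elane on chromosome 10 and chosen after its values were seen, had means of 1.33 and 0.83 and overlapping groups (adjusted p = 0.591 in limma), and it too entered the test only through WT.

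Ngp encodes neutrophilic granule protein, a relative of the cathelicidins stored in specific granules. Its log2 levels were 5.70, 6.44 and 6.41 in WT and 4.33, 4.95 and 4.67 in AMPK KO, on 226 to 857 reads per library. The highest AMPK KO sample lay well below the lowest WT sample. Means were 6.18 ± 0.42 and 4.65 ± 0.31 (SD, n = 3), a difference of −1.53 ± 0.24 (standard error), called by limma at an adjusted p of 0.00188, which is 2.89-fold lower on this scale. By exact permutation, two-sided, p was 0.1, the smallest that 3 samples against 3 allow. With single libraries left out, the log2 fold change of Ngp ranged from −1.77 to −1.37 and each adjusted p stayed under the threshold in limma.

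Ltf, the iron-binding lactoferrin of specific granules, followed with log2 levels of 3.03, 4.02 and 3.66 in WT and 1.64, 2.21 and 2.23 in AMPK KO. The groups were separate here as well, on 66 to 152 reads per WT library and 25 to 44 per AMPK KO library. Its means of 3.57 ± 0.50 and 2.03 ± 0.34 (SD, n = 3) differed by −1.54 ± 0.38 (standard error), and limma called the gene at an adjusted p of 0.0285. This call rested on single libraries. It was lost without WT sample 1 (adjusted p = 0.0536), WT sample 2 (0.0793), WT sample 3 (0.126) or AMPK KO sample 1 (0.129), each in limma, while the log2 fold change stayed between −1.81 and −1.32.

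Camp encodes the mouse cathelicidin, from which an antimicrobial peptide is cut. Its log2 levels were 4.27, 5.50 and 4.78 in WT and 4.27, 3.41 and 3.83 in AMPK KO. WT sample 1 and AMPK KO sample 1 had the same value, so the groups touched. Means of 4.85 ± 0.62 and 3.83 ± 0.43 (SD, n = 3) differed by −1.02 (standard error 0.32), which did not pass the threshold over all genes (limma, adjusted p = 0.0799). The value without WT sample 2 was −0.69.

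Lcn2, a lipocalin that binds bacterial iron carriers, had log2 levels of 2.26, 3.0 and 2.81 in WT and 1.95, 1.56 and 2.36 in AMPK KO. AMPK KO sample 3 lay above WT sample 1. Its means differed by −0.73 ± 0.39 (standard error; limma, adjusted p = 0.305) on 21 to 70 reads per library.

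Mmp8, the neutrophil collagenase, had log2 levels of 1.13, 1.93 and 2.55 in WT and 2.36, 2.38 and 2.33 in AMPK KO. The WT samples spread on both sides of the AMPK KO samples, which lay close together. The means differed by 0.49 ± 0.43 (standard error; limma, adjusted p = 0.552), a value that was 0.12 without WT sample 1 and 0.83 without WT sample 3.

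Retnlg encodes resistin-like gamma, a secreted protein of mature neutrophils. Its log2 levels were 3.46, 3.28 and 2.85 in WT and 3.61, 3.89 and 3.87 in AMPK KO. Every AMPK KO sample lay above every WT sample, on 55 to 92 reads per WT library and 133 to 162 per AMPK KO library. The difference of means, 0.59 (standard error 0.30), did not pass the threshold over all genes (limma, adjusted p = 0.277).

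S100a8 and S100a9, the subunits of calprotectin, had 2434 to 3602 and 2835 to 3888 reads per library. S100a8 had log2 levels of 8.55, 8.43 and 8.58 in WT and 7.69, 8.39 and 7.83 in AMPK KO. AMPK KO sample 2 was just below the lowest WT sample, and the other AMPK KO samples were lower still. For S100a8 the means differed by −0.55 ± 0.17 (standard error; limma, adjusted p = 0.0747).
S100a9 had log2 levels of 8.35, 8.46 and 8.60 in WT and 8.01, 8.50 and 7.90 in AMPK KO. Here AMPK KO sample 2 lay among the WT samples. For S100a9 they differed by −0.33 ± 0.16 (standard error; limma, adjusted p = 0.264). Without AMPK KO sample 2, both genes passed the threshold in limma, S100a8 at −0.76 (adjusted p = 0.000868) and S100a9 at −0.51 (adjusted p = 0.0134). Leaving out the other AMPK KO samples moved both toward 0, to −0.41 for S100a8 without sample 1 (limma, adjusted p = 0.327) and to −0.21 for S100a9 without sample 3 (limma, adjusted p = 0.575). S100a8 also passed when libraries were scaled to the reads outside Rn45s, at −0.62 (adjusted p = 0.0354), a scaling that moved the median of all tested genes from 0.02 to −0.05.

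Order among samples differed between members. WT sample 1 was the lowest WT sample for 8 of the 10 members, the exceptions being S100a8 and Retnlg. WT sample 2 was the highest of all 6 samples for Ngp, Camp, Ltf, Lcn2 and Elane, and WT sample 3 for S100a8, S100a9, Mpo and Mmp8. The summed level of Ngp, Camp and Ltf was 76.4, 145 and 122 CPM in WT and 39.4, 43.1 and 41.4 CPM in AMPK KO, so the spread was wider in WT. That of S100a8 and S100a9 was 698, 695 and 769 CPM in WT and 462, 697 and 464 CPM in AMPK KO, where sample 2 matched WT. AMPK KO sample 2 also had the highest summed level of all 6 samples for 10 of the 12 other lists, the exceptions being monocyte and T cell genes, with 2307 CPM for macrophage and 5581 CPM for erythroid genes. The part of these in its S100a8 and S100a9 levels was not tested.

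Relative to S100a8 in the same library, a measure that no scaling of a whole library changes apart from the added 1, the members lay on both sides, and none of the differences passed an adjusted test. Elane was left out because it was at 0 in AMPK KO. The log2 level of Ngp minus that of S100a8 was −2.34 ± 0.45 in WT and −3.32 ± 0.15 in AMPK KO (SD, n = 3), a difference of −0.98. The difference was −0.99 for Ltf, with no overlap between the groups in either case. Against S100a8, Retnlg was higher in AMPK KO by 1.14, Mmp8 by 1.04 and S100a9 by 0.22, again without overlap. S100a8 itself differed by −0.55, so an unchanged gene would lie 0.55 higher on this measure. On its own level S100a9 differed by −0.33, and the groups overlapped for both S100a9 and Mmp8. The share of all genes without overlap on this measure was not computed. Camp, Mpo and Lcn2 overlapped, with differences of −0.47, −0.38 and −0.18. Over the 8 differences compared, the exact two-sided permutation p was 0.1 for the 5 without overlap, or 0.16 after adjustment, and the design allows none lower than 0.1 for a single difference.

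**Figure D2:**
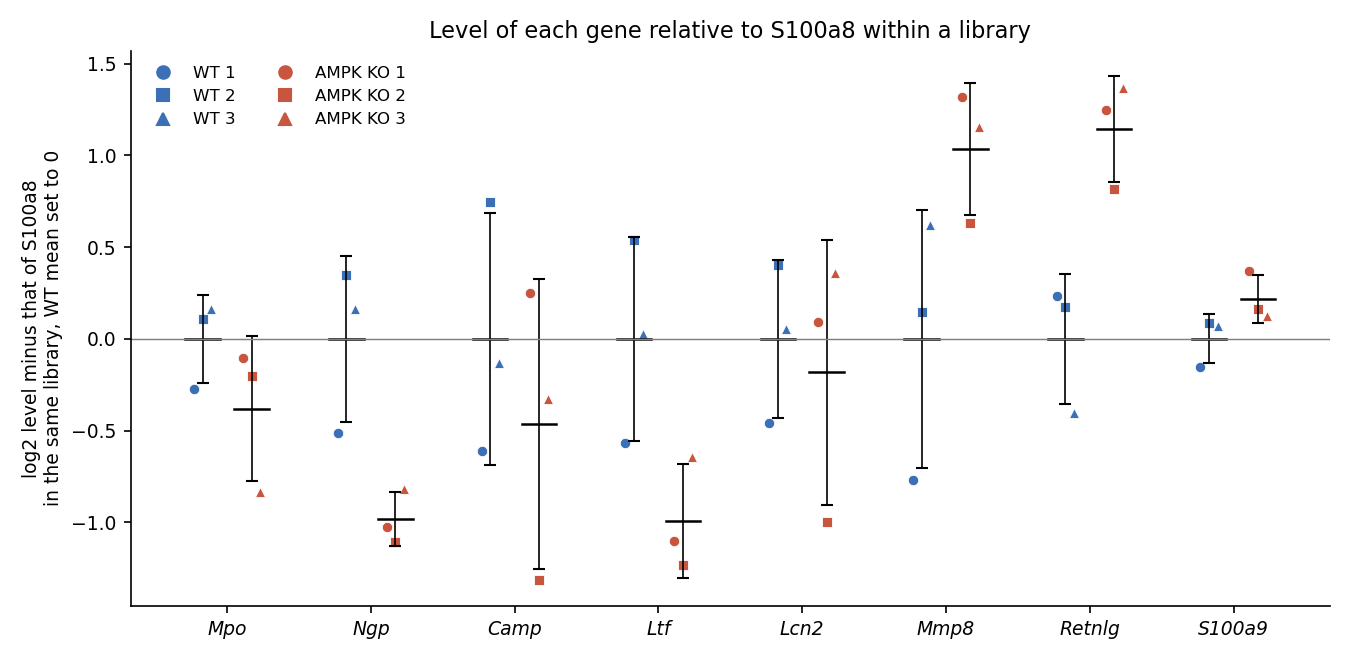
Log2 level of each gene minus that of S100a8 in the same library (vertical axis), shifted so that the WT mean of each gene is 0, for 3 WT and 3 AMPK KO samples, with group means and SD. Ngp and Ltf lie lower and Mmp8, Retnlg and S100a9 higher in all AMPK KO samples, whereas the groups overlap for Mpo, Camp and Lcn2.

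The 3′ reads were matched to genes by symbol, and the positions of the members are those of GENCODE M21 on GRCm38 (mm10). Camp (chr9:109847379-109849617, minus strand), Ngp (chr9:110419747-110423012, plus strand) and Ltf (chr9:111019271-111042767, plus strand) lie within 1.2 Mb of each other on chromosome 9. Between them, 15 other genes were tested, with a median log2 fold change of −0.09 and a range from −0.91 to 0.32. Of these only Als2cl was called, at −0.68 (standard error 0.18, adjusted p = 0.0348 in limma), where 5.65% of all tested genes were called. Ccrl2, a chemokine-binding receptor gene within 100 kb of Ltf, was called in the other direction at 1.65 (adjusted p = 0.0143 in limma).
S100a8 (chr3:90668978-90670035, plus strand) and S100a9 (chr3:90692632-90695721, minus strand) are neighbours in the S100 cluster of chromosome 3. The other tested genes within 100 kb were S100a4 and S100a6, and both rose in AMPK KO. S100a4 went from a mean log2 level of 6.67 to 7.71 and S100a6 from 5.50 to 6.75 (limma, adjusted p = 0.0102 and 0.00188). Of 7 tested S100 genes other than the members, 6 had higher means, against 51.2% of all tested genes. In all 3 were called higher, against 2.54% of all tested genes, and the third was S100a11 at 0.92 (adjusted p = 0.00552 in limma). S100g, the exception, differed by −0.69 (adjusted p = 0.222 in limma). The groups did not overlap for 6 on the higher side, against 11.6% of all tested genes, and for S100g on the lower side, against 14%. S100a4, S100a6 and S100a11 are calcium-binding proteins of many cell types, activated T cells and macrophages included.

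Elane (chr10:79886247-79888215, plus strand) had 10 other tested genes within 100 kb, of which limma called 0, with 2 at an unadjusted p under 0.05, a level that 21.3% of all tested genes reached. The remaining members were Mpo (chr11:87793581-87804413, plus strand), Lcn2 (chr2:32384633-32388252, minus strand), Retnlg (chr16:48872621-48874496, plus strand) and Mmp8 (chr9:7558456-7568485, plus strand). Retnla, a paralog of Retnlg within 100 kb of it, had means of 0.89 and 2.29 (limma, adjusted p = 0.0869) and entered the test only through AMPK KO.

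Other transcripts of neutrophils were read from fixed lists. Among 20 further granule and secreted proteins, 12 were tested, 6 with higher and 6 with lower means, and 0 were called by limma at an adjusted p of 0.05 or by voom, with 3 at an unadjusted p under 0.05, against 21.3% of all tested genes. Their median log2 fold change was −0.22, against 0.02 over all tested genes. The members with the highest levels were Cybb, a subunit of the oxidase, at 0.53, Lyz2, a lysozyme shared with macrophages, at 1.03, and Wfdc21 at −0.70, with adjusted p values of 0.0988, 0.198 and 0.329 in limma. Cybb lay higher in every AMPK KO sample. Chil3, a chitinase-like protein chosen after its values were seen, lay lower in every AMPK KO sample, with a mean of 2.80 against 3.85 (limma, adjusted p = 0.0806).

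Surface, chemotaxis and cytosolic genes of neutrophils formed a list of 20, of which 19 were found, as Ly6g was not among the listed symbols. Of these, 15 were tested, 14 of them had higher means in AMPK KO, and 6 were called higher by limma, against 2.54% of all tested genes. Over the 15, the median difference was 0.88. The exception was Ifitm6 at −1.16 (limma, adjusted p = 0.214), which entered the test only through WT. Clec4d, a C-type lectin of myeloid cells, rose from a mean log2 level of 1.95 to 4.32 (adjusted p = 0.00188 in limma). Fcgr4, an Fc receptor that is also in the monocyte list, rose by 1.67, Clec4e by 1.38 and Hdc, the histamine-forming enzyme, by 1.14, with adjusted p values of 0.0253, 0.0112 and 0.0117 in limma. The cytokine Il1b rose by 0.96 and the decoy receptor Il1r2 by 0.98, and these complete the 6. Several of these genes are also expressed by macrophages or monocytes, and Hdc by basophils. The count was 3 without WT sample 1, WT sample 3 or AMPK KO sample 1. Csf3r, the receptor for the granulocyte growth factor and too low to be tested, had means of 0.24 and 1.33 on 1 to 24 reads and was chosen after its values were seen.

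**Figure D3:**
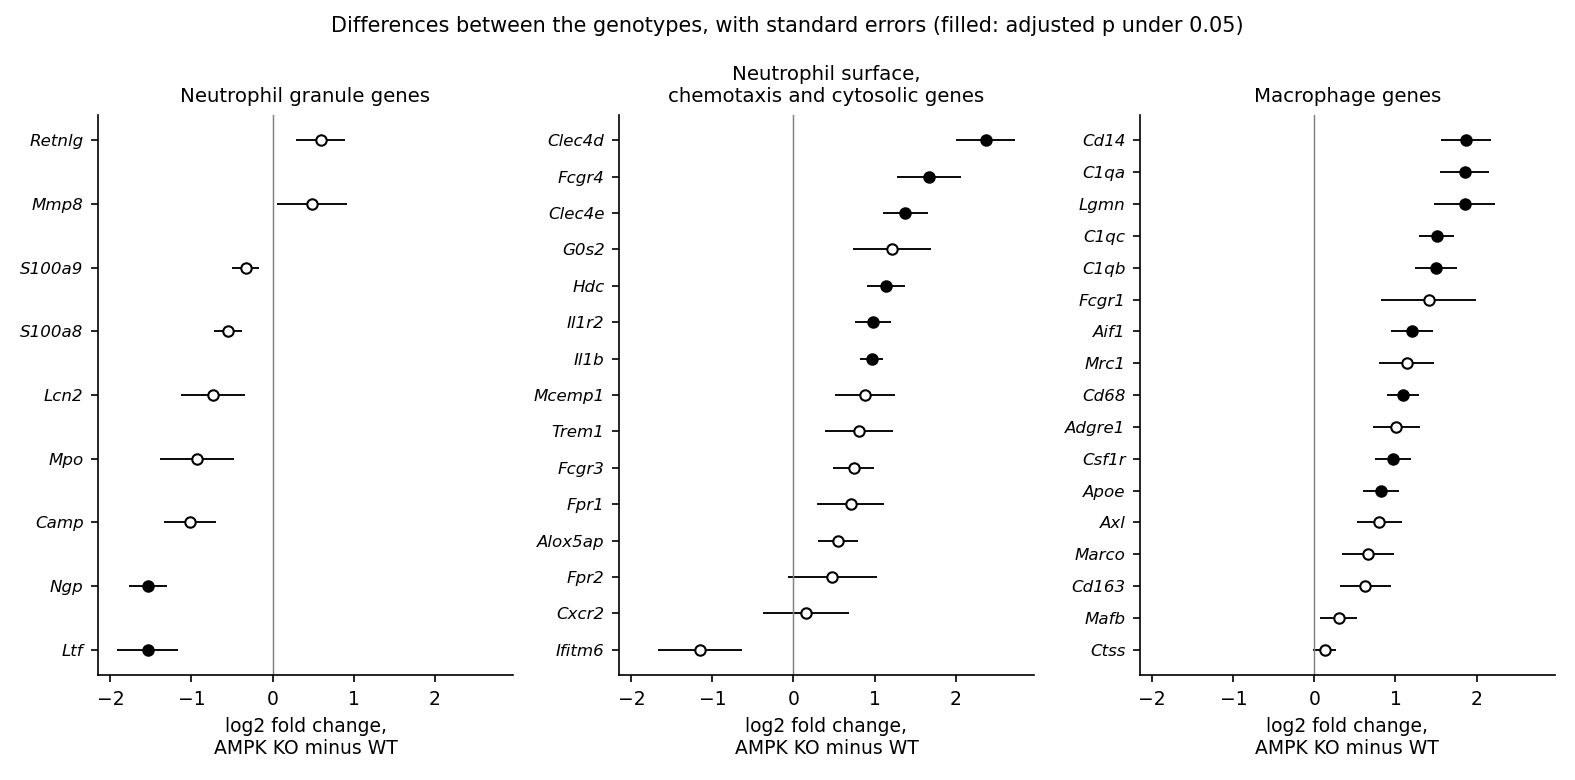
Log2 fold change, AMPK KO minus WT, with its standard error (horizontal axis), for the tested genes of 3 lists, where filled points passed an adjusted p of 0.05 in limma. Points lie on both sides of 0 for the granule genes, whereas 14 of 15 surface genes and all 17 tested macrophage genes lie above 0.

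Macrophage genes were read beside the granule genes. Of 20 listed, 17 were tested and all 17 had higher means in AMPK KO, and 9 were called higher by limma, against 2.54% of all tested genes. Fcgr1 entered the test only through AMPK KO, with means of 0.62 and 2.03, so its direction was fixed by the minimum. The median difference was 1.10 for them, −0.73 for the 9 tested granule genes and 0.02 over all tested genes. Cd14, the co-receptor for lipopolysaccharide, rose from a mean log2 level of 3.05 to 4.93, the complement gene C1qa from 5.27 to 7.13, the lysosomal protease Lgmn from 2.40 to 4.25 and C1qc from 4.70 to 6.21. The adjusted p was 0.0031, 0.00308, 0.0119 and 0.00127 for these in limma. The called macrophage genes numbered 5 without WT sample 1, WT sample 3 or AMPK KO sample 1. Monocyte genes had higher means for 7 of 8 tested, and Fcgr4 and Ly6c2 were called, with Ly6c2 at 0.92 (adjusted p = 0.0056 in limma). With voom on the recovered reads, 1 monocyte gene was called.

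Summed over each list, the granule genes took 792 to 913 CPM in WT and 520 to 762 in AMPK KO, with no overlap. Without S100a8 and S100a9, the 8 other members took 94.3 to 168 CPM in WT and 58.4 to 64.7 in AMPK KO, again with no overlap. The macrophage genes took 833 to 971 CPM in WT and 1266 to 2307 in AMPK KO, and the neutrophil surface genes 239 to 260 and 437 to 592. Both sums were therefore higher in each AMPK KO sample, where that of the granule genes was lower. In the neutrophil surface list Il1b and Il1r2 had the highest levels, and its sum without them was not taken.

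**Figure D4:**
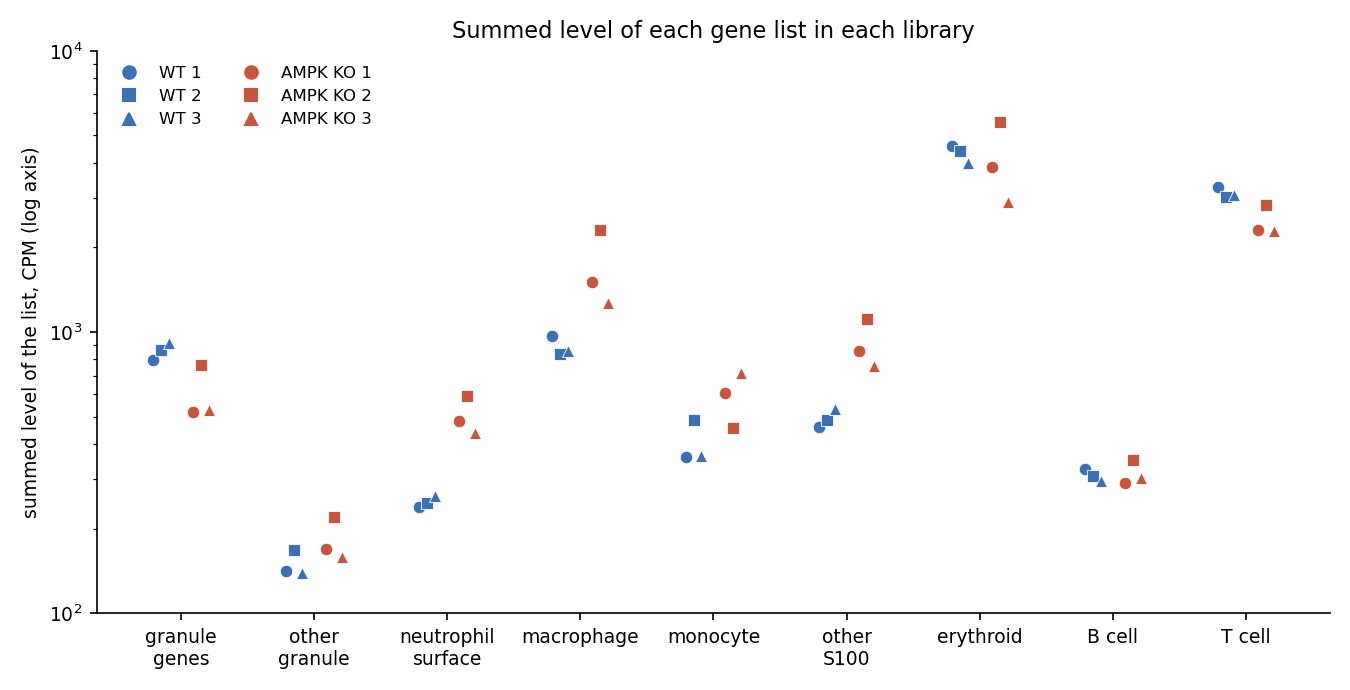
Summed level of each gene list in CPM (vertical log axis) for each WT and AMPK KO library, where each symbol is a library. The AMPK KO libraries lie below WT for the granule and T cell genes, above WT for the neutrophil surface, macrophage and other S100 genes, and overlap WT for the other granule, monocyte, erythroid and B cell genes.

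Markers of the remaining cell types were examined beside these. T cell genes had lower means for 10 of 11 tested and 3 were called lower by limma, against 3.1% of all tested genes, namely Cd3g at −0.93, Cd3e at −0.66 and Cd28 at −0.56, with a median of −0.32. The summed T cell level was 3012 to 3281 CPM in WT and 2277 to 2836 in AMPK KO. Erythroid genes had a median of −0.01 over 8 tested, and their sum was 3999 to 4603 CPM in WT and 2899 to 5581 in AMPK KO. B cell genes had a median of 0.02 over 9 tested, CD8 T cell and NK cell genes 0.34 over 7, and genes of eosinophils, basophils and mast cells 0.47 over 4. In these 4 lists 0 genes were called by limma or by voom, and those at an unadjusted p under 0.05 numbered 0 erythroid, 1 B cell, 3 CD8 T cell and NK cell and 0 eosinophil, basophil and mast cell genes, against 21.3% of all tested genes. One of the CD8 T cell and NK cell genes, Prf1, entered the test only through WT, with means of 1.67 and 0.58. The summed CD8 T cell and NK cell level was 315 to 412 CPM in WT and 441 to 516 in AMPK KO. The part of the lower T cell and higher macrophage levels in the granule gene values was not tested.

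Regulators and partners of the granule proteins were measured as well. Of 8 factors of granulocyte development, 6 were tested and 0 were called by limma or by voom, with 2 at an unadjusted p under 0.05 against 21.3% of all tested genes, and their median was 0.43. Spi1, which encodes PU.1, went from a mean log2 level of 5.31 to 5.59 and Runx1 from 5.54 to 5.15. Gfi1, a repressor also used in T cells, went from 5.17 to 3.99 with separate groups (limma, adjusted p = 0.0639). Cebpe, the factor of the specific granule stage, and Csf3 were named after their values were seen. Cebpe had at most 4 reads in any library, and Csf3, the granulocyte growth factor, had 0 in all. Among 12 inhibitors, receptors and partners, 9 were tested, 7 had higher means, against 51.2% of all tested genes, and the median was 0.22. Of the 9, 4 had an unadjusted p under 0.05 in limma, against 21.3% of all tested genes. Only Slpi, the secreted inhibitor of neutrophil elastase, was called, where 2.54% of all tested genes were called higher. Slpi rose from 4.29 ± 0.44 to 6.47 ± 0.54 (SD, n = 3; limma, adjusted p = 0.000444). Serpinb1a, an intracellular elastase inhibitor chosen after its values were seen, went from 3.87 to 4.53 (limma, adjusted p = 0.16).

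Profiles like that of S100a8 were looked for among all tested genes by the root mean square difference of the log2 levels over the 6 samples, with each profile centred on its own mean. Nrbp1, Cetn3, Stx5a, Ift46 and Sox15 were the 5 nearest, with differences of 0.075 to 0.085. S100a9 was 116th at 0.15, and the next members were Mpo at 0.33 and Lcn2 at 0.49. Ngp, Ltf, Retnlg, Camp and Mmp8 were farther, at 0.56 to 0.69. The 5 nearest genes were in none of the lists, and limma called none of them at the adjusted threshold.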

How the data were processed

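CD4 T cell RNA from 3 WT and 3 AMPK KO samples (500 ng per library) was sequenced from transcript 3′ ends with Lexogen QuantSeq chemistry. The authors deposited log2 values per gene symbol, after TMM and CPM scaling and addition of 1. The submitters' processing notes name Bowtie2, bedtools and mm10, whereas annotation and strand of counting are not given in the sources used here. Whole reads were recovered from these values, since 100% of values up to 100 reads lay within 0.1 of a whole number.

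The 11279 of 23282 genes whose mean log2 value was 1 or more were fitted with limma 3.58.1 in R 4.3.3 (eBayes with trend, genotype as the only term), two-sided, with Benjamini-Hochberg adjustment over all tested genes and a threshold of 0.05. Single values were compared by exact permutation tests. Fold changes on this scale understate those of low genes. The members and the gene lists were chosen with earlier results of these data known. All members are described. From other lists, the genes named were up to 4 past the threshold with the largest change, or otherwise the 3 with the highest level. Outside this rule, Chil3, Prtn3, Csf3r, Il1b, Il1r2, Ifitm6, Fcgr1, Prf1, S100g, Cebpe, Csf3, Serpinb1a, Cd3d, Cd4 and genes near the members were named after their values were seen. Promoter windows came from RefSeq (GRCm38.p6) and matched all 10 members. Alternatives were no filter, a filter of at least 3, quantile normalization, scaling to reads outside Rn45s, a pseudocount of 0.25, a replicate block, robust spread, voom on the recovered reads, and leaving out each library. The counts for the macrophage, surface and S100 lists under these settings were added after seeing the data.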

Additional observations from a re-analysis of the deposited data

How the results depend on the processing

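Each of the 9 tested members kept its direction under every alternative in which it was tested. The changes of filter, the replicate block and robust spread leave the log2 fold change itself as it was, so those settings could not alter a direction. Of the 2 called members, Ngp lost its call only without a filter (adjusted p = 0.159 in limma), and Ltf lost its call there (0.22), with the replicate block (0.0911) and in 4 of the fits that left out a library. Without a filter, limma called 0 members, while 5 had an unadjusted p under 0.05, and 39 genes in all, 1 macrophage gene, 0 neutrophil surface genes and 0 S100 genes. In that fit 23282 genes were tested, many of them at 0. With a filter of at least 3, 5 members were tested and 1 was called, against 620 of 7957 genes. With the replicate block, limma called 102 genes, 1 member, 4 macrophage genes, 2 neutrophil surface genes and 1 S100 gene. The numbers pair no samples by their labels, and deviations from the group means of same-numbered samples correlated at −0.08, −0.32 and −0.16 over genes, so no sample correlated best with its own number. Leaving out single libraries gave 127 to 1243 genes against 637, 1 to 4 members, 5 to 11 macrophage genes and 3 to 6 neutrophil surface genes. Voom on the recovered reads called 539 genes, with 2 members, 8 macrophage, 5 neutrophil surface, 3 S100, 1 monocyte and 2 T cell genes. With values scaled to the reads outside Rn45s, 32.5% of all called genes were higher in AMPK KO, against 45.1% as deposited. The causes of these shifts were not tested. Read depth limits Elane, Mpo, Lcn2 and Mmp8, which had at most 70 reads in any library.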
